A study of Mus musculus with 4 samples.

Results

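Mouse genes encoding 8 bromodomain proteins were followed in sorted male germ cells: *Brdt*, *Brd1*, *Brd2*, *Brd3*, *Brd7*, *Brd8*, *Brd9* and *Bptf*. They were chosen by name, but with earlier results of these data known. All 8 were found among the 24411 gene rows of the data. All 8 were also among the 14512 genes tested, those that averaged 1 TPM or more over the 4 libraries.

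The study asked how gene expression in meiotic prophase differs when the zinc-finger protein ZFP541 is missing, and RNA was sequenced from testis cells sorted for GFP at postnatal day 18. There were 2 control samples (*Zfp541*+/-) and 2 samples labelled *Zfp541* KO. The deletion, as the study's methods describe it, removes a run of exons from the first onwards. Every sample, controls included, carried an allele of *Rec8* written *Rec8-3xFLAG-HA-p2A-GFP*, a knock-in, in which GFP is released from the gene product, a meiotic cohesin subunit. According to the series' design text, the knock-in was heterozygous in 1 of the control testes and homozygous in the other and in both KO testes, without a statement of which control is which. The sample labels give a mixed C57BL/6 and CBA strain, whereas the methods give C57BL/6. The labels do not say whether the samples of a group came from separate animals or from a pool, so the p-values measure the spread between these samples, which may be technical.

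A bromodomain is a pocket that binds acetylated lysines, and most proteins that carry it read the acetylation of histone tails. BRDT, BRD2 and BRD3 belong to the BET family, whose members carry a pair of bromodomains and help bring the transcription elongation machinery to acetylated chromatin. BRDT is the testis-restricted BET protein, needed for gene expression in meiotic and post-meiotic male germ cells and for the compaction of hyperacetylated chromatin in spermatids. The other genes encode subunits of larger complexes: BRD1 of a histone acetyltransferase complex with KAT6A, KAT6B or KAT7, BRD8 of the TIP60 acetyltransferase complex, BRD7 and BRD9 of the PBAF and ncBAF forms of the SWI/SNF remodeller, and BPTF of the NURF remodeller.

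Expression was given in TPM (transcripts in a fixed total, the same for every library), a level per transcript length, so levels of different genes can be set side by side. The number of reads behind a value is not known from TPM, which leaves the counting error of each value unknown. Group differences below are log2 fold changes of the libraries labelled *Zfp541* KO over the controls on the log2(TPM + 1) scale, from limma fitted over all 14512 genes. In these bulk samples, fewer cells of a type and less RNA per cell cannot be told apart.

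Several features of the libraries bear on every value below. *Zfp541* itself had 112 TPM in control 1, 72.2 TPM in control 2, and 136 and 151 TPM under the KO label. Its gene-level TPM was thus not lower under the KO label, and every direction below rests on the labels alone. Gene-level TPM does not tell which exons the reads came from. By immunoblot, the study found no ZFP541 protein in testes of its knockout mice, which is evidence on the mouse line and not on these libraries. Germ cell markers were present (*Sycp3*, of the synaptonemal complex, at 1108 to 2196 TPM), whereas *Rec8* was at 7.05 to 27.9 TPM. The 10 leptotene and zygotene markers summed to 2192 and 2635 TPM in the controls, against 4412 and 4552 TPM under the KO label. Of these, 8 of 10 were above both controls in both libraries labelled KO (38.6% of all genes tested). The 10 pachytene markers summed to 8972 and 4445 TPM in the controls, against 3495 and 4808 TPM under the KO label. Of these, 4 of 10 were below both controls (12.1% of all genes tested). Among the marker lists, the controls differed most in Leydig cell markers and in macrophage and red cell markers, by the median log2 difference of a list. The 6 Leydig cell markers summed to 2910 TPM in control 1 and 18.0 TPM in control 2 (331 and 504 TPM under the KO label), with *Lhcgr* at 0 in control 2. The 10 macrophage and red cell markers summed to 2117 and 42.0 TPM in the controls (1717 and 1531 TPM under the KO label). The 12 spermatogonial markers summed to 482 TPM in control 1 and 1075 TPM in control 2 (812 and 646 TPM under the KO label). This sum went the other way, but the list was split, with 5 of the 11 markers tested lower in control 2. *Uchl1* alone was at 127 TPM in control 1 and 559 TPM in control 2. The sum of the 7 Sertoli cell markers was also higher in control 2, at 147 and 228 TPM in the controls (251 and 201 TPM under the KO label). The 5 peritubular myoid markers were at 12.3 and 18.65 TPM in the controls (24.7 and 18.5 TPM under the KO label). The 7 spermatid markers summed to 20.1 and 19.4 TPM in the controls (37.5 and 35.8 TPM under the KO label). Only 3 of the 7 averaged 1 TPM or more. Of these, *Spaca1* was at 7.34 and 13.9 TPM in the controls, against 27.0 and 26.6 TPM under the KO label. *Tssk6* was at 2.56 and 5.49 TPM, against 8.83 and 7.14 TPM, and *Tnp2* at 7.59 and 0 TPM, against 0.46 and 0.75 TPM. The part of cell composition in the differences described here was not tested.

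All 8 genes were expressed in all 4 libraries, over a range from 12.2 to 315 TPM. Averaged over the libraries, *Brdt* was highest at 243 TPM, followed by *Brd2* (228 TPM), *Brd7* (200 TPM), *Brd8* (102 TPM), *Brd9* (93.9 TPM), *Brd3* (52.7 TPM), *Brd1* (52.2 TPM) and *Bptf* (37.1 TPM). The ranges over the libraries separated only 2 pairs of neighbours in this order, *Brd7* from *Brd8* and *Brd9* from *Brd3*. *Brd1* was above *Bptf* in 4 of 4 libraries, by 1.18 to 2.54 times, although their ranges overlapped. *Brdt*, *Brd2* and *Brd7* took the first 3 places in every library, but each of them was first in at least 1 library, and *Bptf* was last in every library. *Brdt* stood between the percentiles 91.0 and 96.5 of all genes tested, and *Bptf* between 44.5 and 68.4.

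**Figure D1:**
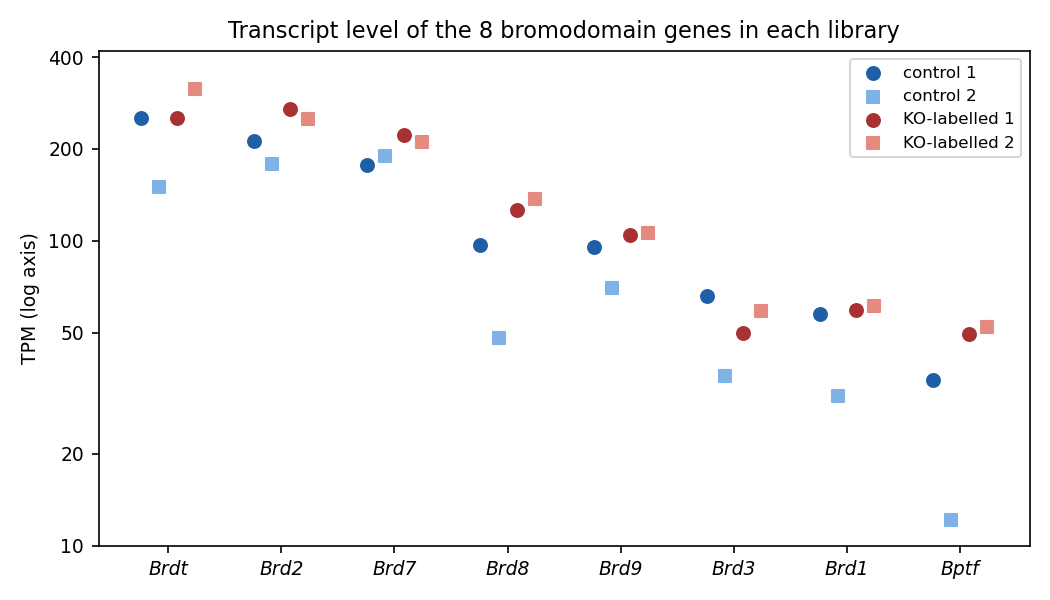
TPM of each of the 8 genes (log axis) in the 4 libraries, with 1 point for each library and genes ordered by their mean. The light blue square of control 2 is the lowest point for 7 of the 8 genes, all but *Brd7*, and the red points of the libraries labelled KO lie above both controls for 6 genes, all but *Brdt* and *Brd3*.

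The start of *Brdt*, the gene with the highest mean level, and that of *Bptf*, the gene with the lowest level and the largest difference between the groups, are shown to contrast their base composition. The sequences are from RefSeq on GRCm38.p6, from 5′ to 3′ on the strand of the gene, and lie just upstream of the annotated exons, at chr5:107330944-107331115 (plus strand) for *Brdt* and chr11:107132148-107132397 (minus strand) for *Bptf*. Capitals mark the GC box GGGCGG, read on either strand.
Brdt: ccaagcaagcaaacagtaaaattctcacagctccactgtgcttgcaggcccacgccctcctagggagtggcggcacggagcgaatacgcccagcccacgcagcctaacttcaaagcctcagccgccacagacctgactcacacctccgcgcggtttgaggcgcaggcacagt
Bptf: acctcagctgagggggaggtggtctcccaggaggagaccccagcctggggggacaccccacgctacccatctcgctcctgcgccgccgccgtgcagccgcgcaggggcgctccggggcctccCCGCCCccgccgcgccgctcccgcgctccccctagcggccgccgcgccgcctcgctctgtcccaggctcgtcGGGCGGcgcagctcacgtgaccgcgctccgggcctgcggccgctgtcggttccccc

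The *Brdt* stretch held 61.0% G and C with 11 CpG dinucleotides in 172 bases, and the *Bptf* stretch 79.2% with 34 CpG in 250 bases. RefSeq windows of 250 bases before to 50 bases after the start were at hand for 7 of the 8 genes, all but *Brd8*, in 10 windows. *Brd2* and *Brd9* each had more than 1 window, and those of *Brd9* overlap, so the counts below are of windows and not of genes. GC content was 64.7% at *Brdt* and 76.3% at *Bptf*, against a median of 52.7% over 32851 windows of the same length. GGGCGG was in 8 of the 10 windows (35.7% of all windows), and the window of *Brdt* was among the other 2. CCAAT was in 1 of the 10 windows, that of *Brdt*, past the printed stretch (37.4% of all windows). CAACTG, a core that A-MYB and other MYB proteins bind, and TGACGTCA, the cAMP response element, were in 0 of the 10 windows and in 13.7% and 1.79% of all windows, each searched on both strands. These matches describe letters only.

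No gene of the set passed an FDR of 0.05 between the groups by limma. Neither did any other gene (0% of the 14512 genes tested in either direction). At an unadjusted p under 0.05 the count was also 0 of 8, against 10.7% of all genes higher and 3.73% lower under the KO label (1549 and 542 genes, or 629 and 1079 after median-ratio scaling). All 8 log2 fold changes were above 0, from 0.14 to 1.25, with a median of 0.46, beside a median of 0.28 over all genes tested. Without control 1 these medians were 0.74 and 0.44, and without control 2 they were 0.22 and 0.15. Relative to that median 6 of the 8 were higher, *Brd3* lay 0.14 below it and *Brd7* 0.046 below it. Both libraries labelled KO were above both controls for 6 of the 8 genes and below both for none, where 38.6% of all genes were above and 12.1% below.

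The spread between the controls was as large as these differences. Control 2 was below control 1 for 7 of the 8 genes, by a median of 0.80 on the log2 scale over all 8, beside 0.36 over all genes tested, and for 6 of the 8 this gap exceeded the difference between the groups. The libraries labelled KO differed from each other by a median of 0.093 and by at most 0.32, the latter for *Brdt*. The call rested on the controls: without control 1, 7 of the 8 genes (all but *Brd7*) passed an FDR of 0.05 by limma as higher, together with 5610 genes in all, and without control 2 only *Bptf* did (adjusted p = 0.0493), together with 2248. In those fits the remaining control was assumed to vary as little as the pair of libraries labelled KO.

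**Figure D2:**
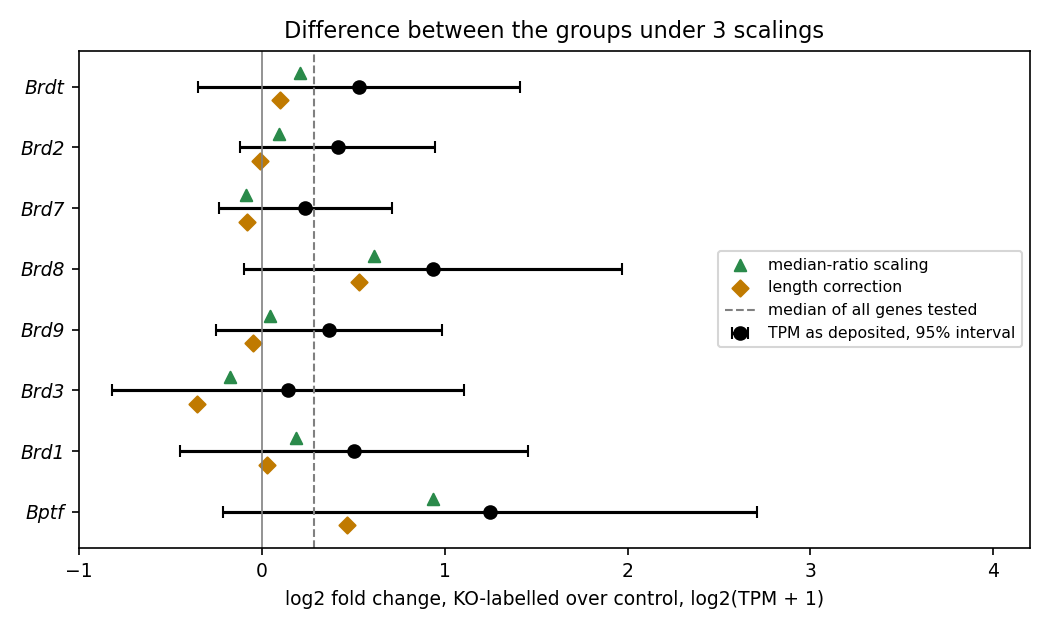
Log2 fold change of the libraries labelled KO over the controls for each gene (x axis, log2(TPM + 1) scale): black points with 95% intervals from limma for TPM as deposited, green triangles after median-ratio scaling and orange diamonds after a correction for transcript length. All 8 intervals include 0, and *Brd8* and *Bptf* lie farthest to the right under all 3 scalings.

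*Brdt* (chr5:107331159-107387058, plus strand, GRCm38) had 252 TPM in control 1, 150 TPM in control 2, 252 TPM in library 1 labelled KO and 315 TPM in library 2 labelled KO. Control 1 was level with the first library labelled KO, and the groups overlapped. The control mean was 201 ± 72.1 TPM and the mean under the KO label 284 ± 44.5 TPM (SD, n = 2 each). The log2 fold change was 0.53 (standard error 0.33, 95% interval -0.35 to 1.41, adjusted p = 0.493 from limma). Taken against each control, the mean under the KO label was 0.16 higher than control 1 and 0.90 higher than control 2 on the log2 scale.

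Among the other BET genes, *Brd2* (chr17:34112023-34122634, minus strand), which is widely expressed, was at 213 and 178 TPM in the controls, against 271 and 250 TPM under the KO label. Both libraries labelled KO exceeded both controls, with means of 260 ± 14.6 against 196 ± 24.6 TPM (SD, n = 2 each) and a log2 fold change of 0.41 (standard error 0.20, 95% interval -0.12 to 0.95, adjusted p = 0.407 from limma). *Brd3* (chr2:27445579-27507662, minus strand), known as a reader of acetylated histones and of the factor GATA1 in blood cells, was at 66.1 and 36.1 TPM in the controls, against 49.7 and 58.9 TPM under the KO label. Its values under the KO label fell between the controls, and its log2 fold change of 0.14 (95% interval -0.82 to 1.11) was the smallest of the set, with an adjusted p of 0.870 from limma.

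The share of *Brdt* in the summed TPM of *Brdt*, *Brd2* and *Brd3* is free of any scaling of a library. It was 47.5% and 41.2% in the controls and 44.0% and 50.5% under the KO label. The groups overlapped, and the difference of 2.91 percentage points had p = 0.667 by a two-sided exact permutation test, where groups of 2 can reach no less than 0.333. Leaving out 1 library at a time gave -0.32 to 6.14 points, with a negative sign without control 2 (-0.21) and without the second library labelled KO (-0.32). Of the ratios within the family, that of *Brdt* to *Brd2* overlapped between the groups (1.18 and 0.844 against 0.932 and 1.26), whereas that of *Brdt* to *Brd3* did not (3.82 and 4.17 against 5.07 and 5.35). On the log2(TPM + 1) scale, 45.9% of all pairs of tested genes had ratios that did not overlap between the groups.

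**Figure D3:**
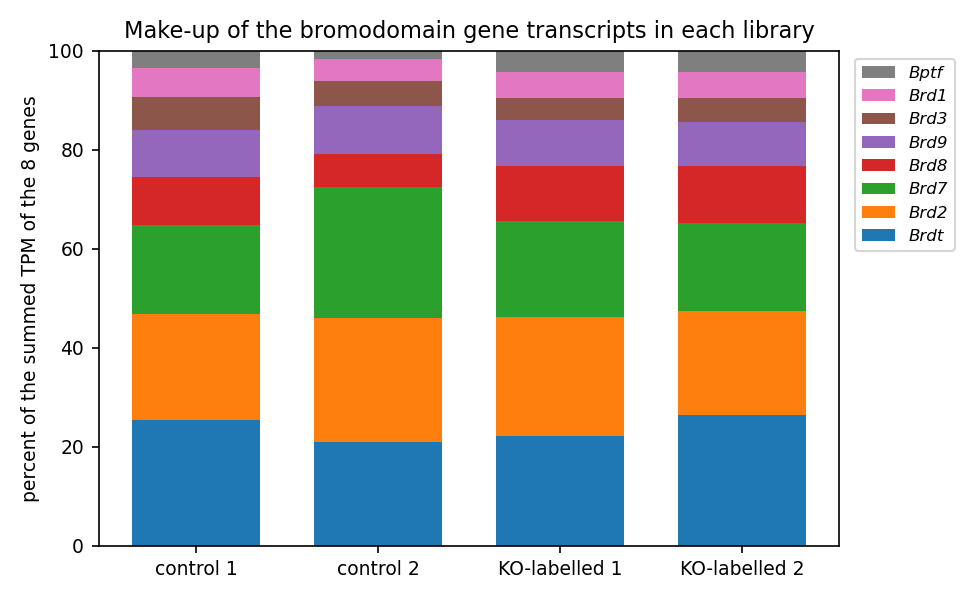
Percent of the summed TPM of the 8 genes taken by each gene (stacked bars from 0 to 100) in each library. *Brdt* takes 21.0% to 26.5%, *Brd7* is widest in control 2 (26.5%, against 17.7% to 19.6% elsewhere), and *Bptf* is thinnest there (1.70%, against 3.53% to 4.36%).

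Of the acetyltransferase subunits, *Brd1* (chr15:88687034-88734233, minus strand) was at 57.3 and 31.0 TPM in the controls, against 59.3 and 61.2 TPM under the KO label. The libraries labelled KO were above both controls, but only just above control 1, by 0.070 on the log2 scale for their mean. The log2 fold change was 0.50 (standard error 0.35, 95% interval -0.45 to 1.45, adjusted p = 0.539 from limma). *Brd8* (chr18:34598615-34624601, minus strand) was at 96.8 and 48.0 TPM in the controls, against 126 and 137 TPM under the KO label. The groups did not overlap, with means of 72.4 ± 34.5 and 131 ± 7.74 TPM (SD, n = 2 each). Its log2 fold change of 0.94 (standard error 0.38, 95% interval -0.10 to 1.97) had the smallest p of the set, 0.0667 before adjustment and 0.367 after it (limma).

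Of the remodeller subunits, *Brd7* (chr8:88331039-88362194, minus strand) varied least, at 177 and 190 TPM in the controls, against 222 and 211 TPM under the KO label. It was the only member higher in control 2 than in control 1, with a log2 fold change of 0.24 (standard error 0.18, 95% interval -0.24 to 0.71, adjusted p = 0.556 from limma). *Brd9* (chr13:73937811-73960895, plus strand) was at 95.1 and 69.8 TPM in the controls, against 105 and 106 TPM under the KO label, a log2 fold change of 0.37 (95% interval -0.25 to 0.98, adjusted p = 0.497 from limma). *Bptf* (chr11:107033081-107132127, minus strand) was at 35.0 and 12.2 TPM in the controls, against 49.4 and 52.0 TPM under the KO label. It had both the largest difference between the groups and the largest gap between the controls, with a log2 fold change of 1.25 (standard error 0.54, 95% interval -0.22 to 2.71, adjusted p = 0.383 from limma). Against control 1 alone the mean under the KO label was 0.52 higher on the log2 scale, and against control 2 alone 1.97 higher.

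Ratios between members within a library were compared as differences of log2(TPM + 1). Such ratios are largely free of the scaling of the library, but not of the trend on transcript length given below. They were taken after the values of the members were seen. Of the 28 ratios between 2 of the 8 genes, 15 had both libraries labelled KO on the same side of both controls, where 45.9% of all pairs of tested genes did. These 15 included 7 of the 7 ratios with *Brd8* and 7 of the 7 with *Bptf*, but 3 of 7 with *Brdt*. The ratio of *Brd8* to *Brd9*, for example, was 1.02 and 0.688 in the controls and 1.20 and 1.29 under the KO label, and that of *Brdt* to *Bptf* was 7.21 and 12.4 in the controls and 5.11 and 6.06 under the KO label. *Brd8* and *Bptf* have the largest fold changes of the set, which their ratios restate, and the ratios share genes and libraries.

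The differences moved with transcript length. When the tested genes with a known length (99.1% of them) were placed in 5 equal bins by their longest annotated transcript, the median log2 fold change went from -0.065 in the shortest bin through 0.15, 0.28 and 0.41 to 0.61 in the longest, and the median gap of control 2 to control 1 from 0.0 through -0.17, -0.30 and -0.43 to -0.70. The 8 genes lie in the upper 3 bins, with *Brd7* in the third, *Brdt*, *Brd2*, *Brd8* and *Brd9* in the fourth, and *Brd1*, *Brd3* and *Bptf* in the fifth. Against the median of its own bin, *Bptf* was 0.64 higher and *Brd8* 0.53 higher, *Brdt* 0.12 higher, *Brd2* 0.0045 higher, *Brd7* lay 0.041 below it, *Brd9* 0.043 below, *Brd1* 0.10 below and *Brd3* 0.46 below.

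With the trend on length removed from each library, the median log2 fold change of the 8 genes was 0.010, beside 0.016 over all genes. In that fit *Brd8* was at 0.53 and *Bptf* at 0.47, *Brdt* was at 0.096, *Brd1* at 0.029, and *Brd2* (-0.0095), *Brd3* (-0.35), *Brd7* (-0.081) and *Brd9* (-0.047) were below 0. Median-ratio scaling, which set the median of all genes to -0.0044, left *Brdt* at 0.21, *Brd8* at 0.61 and *Bptf* at 0.93, and put *Brd3* (-0.18) and *Brd7* (-0.087) below 0.

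**Figure D4:**
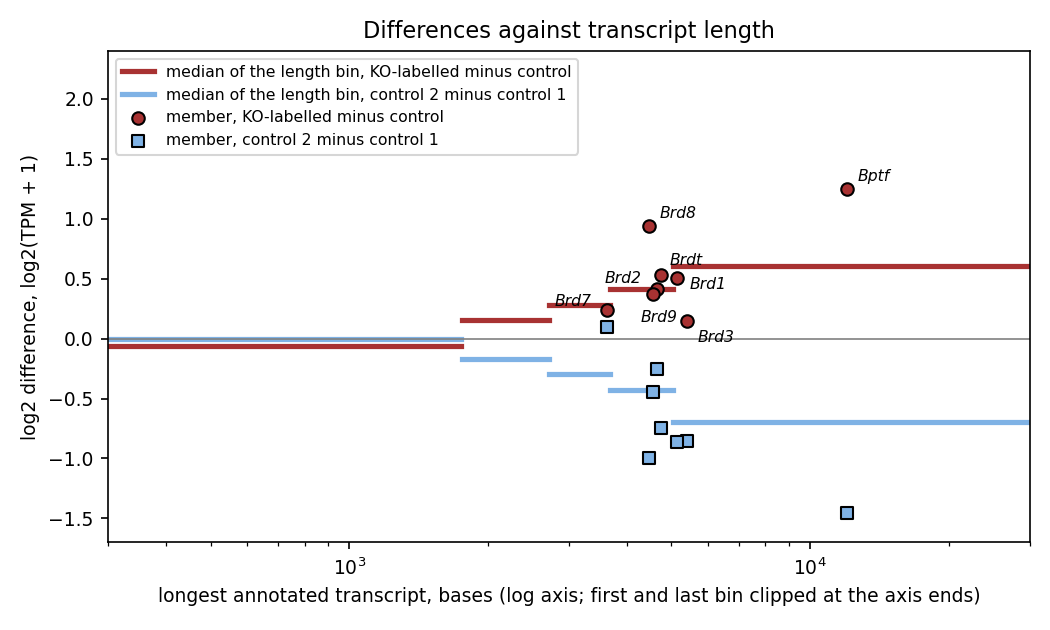
Log2 difference (y axis) against the length of the longest annotated transcript in bases (log x axis). Lines are the medians of 5 equal bins of genes and points the 8 genes, in red for the libraries labelled KO minus the controls and in light blue for control 2 minus control 1. The red medians climb from -0.065 to 0.61 while the blue ones descend from 0.0 to -0.70, and *Brd8* and *Bptf* lie above the red median of their bins.

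The other genes with a bromodomain had a larger median difference than the 8, a gap that was not tested. Of 32, 14 were higher at an unadjusted p under 0.05 and 0 lower (10.7% and 3.73% of all genes), and 0 passed an FDR of 0.05 by limma. Both libraries labelled KO were above both controls for 19 of the 32 (38.6% of all genes). The median log2 fold change was 0.76, or 0.15 with the length trend removed, 1.11 without control 1 and 0.35 without control 2. *Kmt2a*, a histone H3 lysine 4 methyltransferase, had the largest positive value, at 12.4 and 7.95 TPM in the controls, against 40.1 and 35.4 TPM under the KO label (log2 fold change 1.82, adjusted p = 0.310 from limma). *Trim28*, a corepressor of transposons and the most abundant of the 32, had a log2 fold change of 0.017, and *Smarca2*, a SWI/SNF ATPase, the lowest value, -0.35. *Smarca2* was at 93.7 TPM in control 1 and 21.0 to 34.8 TPM in the other libraries, so that its groups overlapped.

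The partners of each protein were read from lists of known complex subunits, and 0 genes of any of these lists passed an FDR of 0.05 by limma. Of 9 genes of the elongation machinery that works with BET proteins, 8 were above both controls in both libraries labelled KO (38.6% of all genes) and 1, *Ccnt2*, was higher at an unadjusted p under 0.05 (10.7% of all genes). Their median log2 fold change was 0.67, from 0.19 for *Mepce*, which caps 7SK RNA, to 1.10 for *Aff4*, the scaffold of the super elongation complex. *Larp7*, which binds 7SK RNA and was the most abundant, was at 0.22. The median of the list was 0.35 after median-ratio scaling and 0.13 with the length trend removed. Of 6 subunits of the BRD1 complexes, 2 were above both controls (median 0.13), with the acetyltransferase *Kat6a*, the 1 gene of the list at an unadjusted p under 0.05, at 1.21, the acetyltransferase *Kat7* at -0.059 and the histone reader *Ing4* at -0.12.

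Of 13 subunits of PBAF and ncBAF, 8 were above both controls and 1 below (38.6% and 12.1% of all genes). Higher at an unadjusted p under 0.05 were 2 (10.7% of all genes), *Smarcc1* and *Smarcd1*, both of the shared core. The median of the 13 was 0.49, or 0.17 after median-ratio scaling, 0.17 without control 2 and 0.082 with the length trend removed. *Arid2*, a PBAF subunit, had the highest value, 0.97, with overlapping groups. *Phf10*, also of PBAF, was at -0.14 and the SWI/SNF subunit *Smarcb1* at -0.46. The 14 TIP60 subunits had a median of 0.20, with 6 above both controls and 1 below (38.6% and 12.1% of all genes). That gene was *Kat5*, which encodes the TIP60 acetyltransferase itself, at 114 and 94.7 TPM in the controls, against 76.0 and 72.5 TPM under the KO label (log2 fold change -0.48, adjusted p = 0.366 from limma), opposite in sign to *Brd8*. *Mbtd1*, a reader of methylated histone in the same complex and the 1 gene of the list at an unadjusted p under 0.05, was at 1.00 and *Morf4l1*, its most abundant member, at -0.21. Of the 4 NURF partners of BPTF, 1 was above both controls, the remodelling ATPase *Smarca5* (log2 fold change 0.71, also the 1 gene at an unadjusted p under 0.05), and the histone chaperone *Rbbp4* was at -0.15 (median of the list 0.046). The medians of the BRD1, TIP60 and NURF lists turned negative under median-ratio scaling and with the length trend removed.

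**Figure D5:**
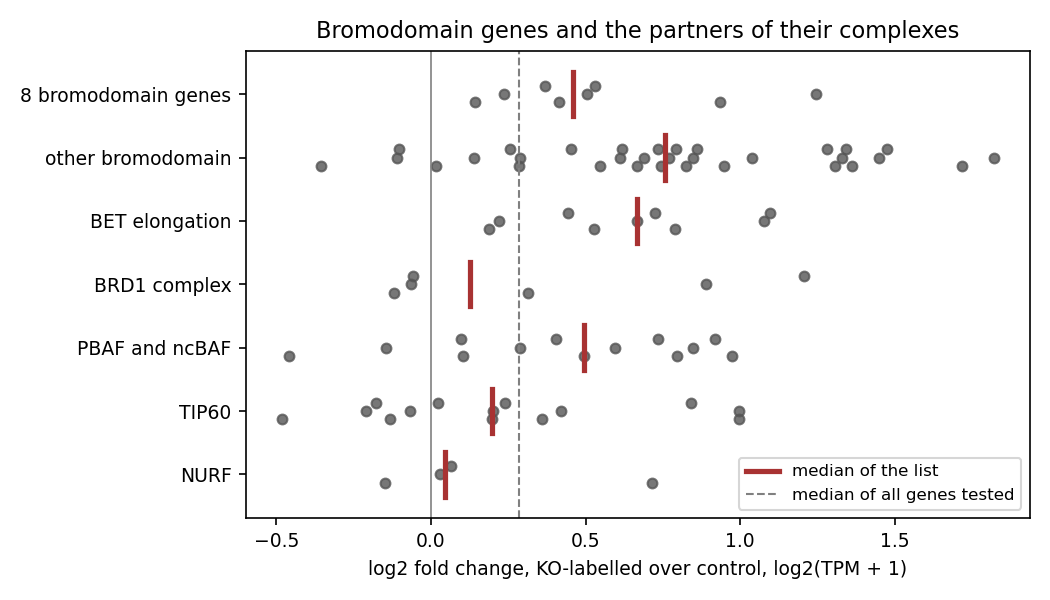
Log2 fold change of the libraries labelled KO over the controls (x axis, log2(TPM + 1) scale) for each gene of the set, of the other bromodomain genes and of the partner lists, with 1 point a gene, red bars for list medians and a dashed line for the median of all genes (0.28). The medians run from 0.046 for NURF to 0.76 for the other bromodomain genes, those of the BRD1 complex, TIP60 and NURF lists lie to the left of the dashed line, and these 3 turn negative under median-ratio scaling.

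The genes whose profile over the 4 libraries came closest to that of *Brdt* were *Mreg* (46.4 and 28.4 TPM in the controls, 47.8 and 60.0 TPM under the KO label), *4930405A21Rik* (5.23 and 2.78, against 5.47 and 6.80 TPM) and *Gas2* (18.8 and 10.8, against 18.1 and 23.1 TPM). Likeness was the Euclidean distance between centred log2(TPM + 1) values over 4 libraries, which was 0.042 for *Mreg* and 0.044 for both others, and 14 genes lay within 0.1. Within the set, *Brd1* was nearest to *Brdt* at 0.21 and *Bptf* farthest at 0.89.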

How the data were processed

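RNA of GFP-positive cells was sequenced as single-end reads. Per the submitters' processing notes and the methods, the authors trimmed reads with Trim Galore 0.5.0 and cutadapt 1.16, aligned them to mm10 with STAR 2.6.0a, and deposited TPM per gene and sample from RSEM 1.3.1. Every library sums to an equal TPM total and its depth is unknown. The authors' own RSEM comparison was not repeated.

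Groups came from the sample labels. Genes averaging 1 TPM or more were fitted with limma 3.58.1 (R 4.3.3) on log2(TPM + 1), using its trend of variance on mean and a Benjamini-Hochberg threshold of 0.05. Such fold changes understate those of low genes. The procedure was also run on simulated data with independent noise for each gene. That simulation held no trend on transcript length and no shift shared by many genes, so it does not cover these features of the libraries. The 8 members and all lists (partners, other bromodomain genes, cell type markers) were chosen with earlier results of these data known. Named were all members, *Zfp541*, the 3 nearest profiles to *Brdt*, and of each list the most abundant gene and the highest and lowest log2 fold change. *Ccnt2*, *Smarcc1*, *Smarcd1* and the sequences shown were picked after values were seen. *Bicra* and *Bicral* were read under older symbols. Transcript lengths and coordinates were from GENCODE (GRCm38), and 27 rows carried dates in place of symbols. Alternatives covered the pseudocount, filter, scaling, variance model, replicate block and each sample left out. A length correction and a crossed block were chosen after seeing the data. Some results are not reported here, and other data types of the study were not analysed here.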

Additional observations from a re-analysis of the deposited data

How the results depend on the processing

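Across 13 alternative fits over all genes, 0 of the 8 genes passed an FDR of 0.05 in the 9 planned and 2 added fits that kept both controls, and 0 to 7 did with 1 library left out, the 7 without control 1. Without a filter 1 gene in all was higher and 1 lower at that FDR. With 1 library left out the counts ran from 0 to 5610 higher and from 0 to 1875 lower, and both upper ends came from leaving out a control. At an unadjusted p under 0.05 the split of 1549 higher and 542 lower became 629 and 1079 with median-ratio scaling, then 596 and 877 with the length correction, and under quantile normalization 1010 and 1009.

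The median of the 8 genes (0.46) was 0.14 with median-ratio scaling and 0.010 with the length correction, and the 32 other bromodomain genes (0.76) were at 0.15 with the latter. With median-ratio scaling *Brd3* (-0.18), *Brd7* (-0.087) and the medians of the BRD1 (-0.19), TIP60 (-0.12) and NURF (-0.27) partners were negative. With quantile normalization *Brd3* (-0.13) and the BRD1 (-0.084) and NURF (-0.053) medians were. With the length correction *Brd2* (-0.0095), *Brd3* (-0.35), *Brd7* (-0.081), *Brd9* (-0.047) and the BRD1 (-0.23), TIP60 (-0.10) and NURF (-0.24) medians were. Leaving out 1 library moved the median of the 8 genes from 0.22 to 0.74, that of the 32 others from 0.35 to 1.11, *Brd3* from -0.28 to 0.57, the BRD1 median from -0.053 to 0.42, the NURF median from -0.069 to 0.55 and the share of *Brdt* in BET TPM from -0.32 to 6.14 points. The cause of these moves was not tested.

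Same-numbered samples deviated from their group means with a correlation of -0.16, so the numbers were not taken to pair the samples. With the replicate block 0 of the 8 genes and 0 genes in all passed the FDR, and at an unadjusted p under 0.05 there were 656 higher and 451 lower. With the crossed block, added after seeing the data, 7 genes passed as higher and 80 as lower, and 0 of the 8. Depth cannot be read from TPM, and 2 libraries a group limit every statement above.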
